A study of Mus musculus with 10 samples.

Results

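Semaphorins, plexins and neuropilins form one signalling family of guidance cues and their receptors, and 29 of its genes were described here across 5 groups of mouse retina. They were chosen by symbol alone (Sema3 to Sema7, plexins A to D and both neuropilins) from the array annotation, with 1 transcript cluster, the array's unit for a gene, per symbol. They comprise 19 semaphorins, 9 plexins and Nrp2, of 30063 genes named on the array, and all 29 passed the filter on dim signal that left 23255 genes to test. Of the 32 clusters that matched the symbols, 3 also carried another name and were not analysed here, among them the clusters of Nrp1 and Sema4a, each of which shares its annotation with a microRNA gene. The third was a non-coding transcript named after Plxna4.

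Total RNA of whole retina from C57BL/6JJmsSlc mice was hybridised to 10 whole-transcript arrays from Affymetrix, with 5 groups of 2 arrays. Pups with oxygen-induced retinopathy (OIR) breathed 75% oxygen from postnatal day 7 for 5 days and then room air. Their retinas, labelled as day 17, were either injected into the vitreous with ISOX DUAL, known as a bromodomain inhibitor, injected with phosphate-buffered saline (PBS), or left uninjected, and injections were given as soon as hyperoxia ended. The other groups were retinas of control pups at day 17 and at day 7, called untreated here. No transgene or deletion is named in the labels, and the dose of ISOX DUAL is not given in the sources used here. The study looked for genes raised in OIR that returned toward their starting level with ISOX DUAL. Whether both arrays of a group stand for different animals or for pooled RNA is not stated in the labels. The p-values below therefore cover the spread among these arrays only, and that spread may be technical. In whole retina, fewer cells of a type and less RNA per cell cannot be told apart.

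Semaphorins are extracellular cues that steer axons, migrating cells and vessel sprouts. Class 3 members are secreted, whereas classes 4 to 7 are held at the cell surface by a transmembrane segment or, for Sema7a, a lipid anchor. Plexins are their receptors and act through a cytoplasmic domain that regulates small GTPases, and neuropilins are co-receptors of most class 3 semaphorins and of vascular endothelial growth factor (VEGF). In the retina, Sema3e acts on endothelial cells through Plxnd1, Sema3a made by neurons repels vessels, and class 5 and class 6 semaphorins with A-type plexins place neurites in the correct layers of the inner retina.

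Stretches of DNA just before the transcription start are shown for 6 genes on which the results turn, Plxnd1 and Sema6d for their level in OIR, and Sema3c, Sema3e, Plxna2 and Plxna3 for their change between the days. Each run holds the 250 bases before a RefSeq start in GRCm38.p6, read 5′ to 3′ on the gene's strand. Capitals mark the core letters bound by hypoxia-inducible factor, ACGTG or GCGTG, on either strand. The windows lie at chr6:115995006-115995255 (minus strand, Plxnd1), chr2:124089719-124089968 and chr2:124653331-124653580 (plus strand, the 2 starts of Sema6d), chr5:17574566-17574815 (plus, Sema3c), chr5:14025026-14025275 (plus, Sema3e), chr1:194619579-194619828 (plus, Plxna2) and chrX:74328816-74329065 (plus, Plxna3).
Plxnd1: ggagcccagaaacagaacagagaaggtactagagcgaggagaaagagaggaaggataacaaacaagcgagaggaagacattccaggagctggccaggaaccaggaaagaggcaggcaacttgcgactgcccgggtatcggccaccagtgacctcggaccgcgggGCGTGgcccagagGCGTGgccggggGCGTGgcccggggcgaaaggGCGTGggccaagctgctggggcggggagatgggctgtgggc
Sema6d, first start: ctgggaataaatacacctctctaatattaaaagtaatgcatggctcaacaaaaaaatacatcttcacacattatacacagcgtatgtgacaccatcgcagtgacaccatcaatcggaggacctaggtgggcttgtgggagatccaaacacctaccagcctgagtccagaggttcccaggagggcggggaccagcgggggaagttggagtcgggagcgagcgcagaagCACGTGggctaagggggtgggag
Sema6d, second start: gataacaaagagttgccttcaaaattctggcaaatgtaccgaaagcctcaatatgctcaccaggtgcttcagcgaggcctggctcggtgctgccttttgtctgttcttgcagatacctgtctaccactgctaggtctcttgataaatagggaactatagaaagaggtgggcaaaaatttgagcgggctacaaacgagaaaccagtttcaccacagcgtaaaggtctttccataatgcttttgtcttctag
Sema3c: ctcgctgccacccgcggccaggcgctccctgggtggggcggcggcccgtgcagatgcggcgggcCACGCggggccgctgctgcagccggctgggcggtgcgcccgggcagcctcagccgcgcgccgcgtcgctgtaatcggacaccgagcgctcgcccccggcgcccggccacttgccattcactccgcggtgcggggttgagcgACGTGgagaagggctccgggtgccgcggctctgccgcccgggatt
Sema3e: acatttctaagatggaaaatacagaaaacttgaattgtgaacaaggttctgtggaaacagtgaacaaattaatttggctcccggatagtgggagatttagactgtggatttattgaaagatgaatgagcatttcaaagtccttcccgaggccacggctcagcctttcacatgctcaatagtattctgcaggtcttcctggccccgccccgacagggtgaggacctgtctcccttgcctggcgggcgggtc
Plxna2: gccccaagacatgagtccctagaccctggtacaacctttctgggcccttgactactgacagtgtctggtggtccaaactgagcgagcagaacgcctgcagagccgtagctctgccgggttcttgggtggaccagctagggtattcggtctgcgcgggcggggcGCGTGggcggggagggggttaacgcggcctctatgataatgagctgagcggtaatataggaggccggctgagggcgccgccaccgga
Plxna3: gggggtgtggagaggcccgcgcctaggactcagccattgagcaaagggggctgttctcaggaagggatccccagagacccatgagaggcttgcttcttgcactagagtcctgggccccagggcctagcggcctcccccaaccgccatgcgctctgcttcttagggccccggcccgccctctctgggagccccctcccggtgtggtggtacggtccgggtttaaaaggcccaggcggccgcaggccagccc
The Plxnd1 window holds 4 cores, and 2.58% of all 32851 windows of this length hold 4 or more. The first Sema6d window holds 2 cores that overlap in the letters CACGTG, which read the same on both strands, and its second window holds none. The Sema3c window holds 2 cores, that of Plxna2 holds 1, and none was found in those of Sema3e and Plxna3. RefSeq windows were matched for 24 of the 29 genes, and Plxna1, Plxna4, Sema3b, Sema3f and Sema6a had no entry. A core was present in 16 of 32 windows of the family (50.0%), against 38.6% of all windows. A match of letters is a description of the window, not a binding site.

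Signal is given as the deposited log2 value of each array, on which a difference of 1 is a 2-fold change, and levels of different genes are not compared, since probes differ in brightness. Signal over background was alike on the arrays: 8.00% to 9.97% of clusters lay above the level that 95% of the negative control probes of that array do not reach, and the medians of those probes lay between 5.83 and 6.11. Of the family, 23 genes lay above that median on all 10 arrays. Plxnb3 and Sema3d lay above it on 0 arrays, Sema3c on 2, Sema3a on 8, and Sema3g and Sema4f on 9 each. For Plxnb3 and Sema3d no fold is therefore given. That median is a low bar, since negative control probes exceed it too. The level that 95% of those probes do not reach lay between 8.31 and 8.64 over the arrays. Plxnd1, Sema6d, Sema3c, Sema3e, Plxna3, Sema5b and Sema4g lay below that level on every array. The arrays of a group differed in the family. In 24 of 29 genes the first uninjected OIR array read lower than the second (53.61% of all genes). The first array was also lower in 19 genes for untreated day 17 (56.04% of all genes) and 20 for untreated day 7 (58.53%). In the ISOX DUAL group the first array was lower in 7 genes (49.4% of all genes) and in the PBS group in 16 (61.6%).

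**Figure D1:**
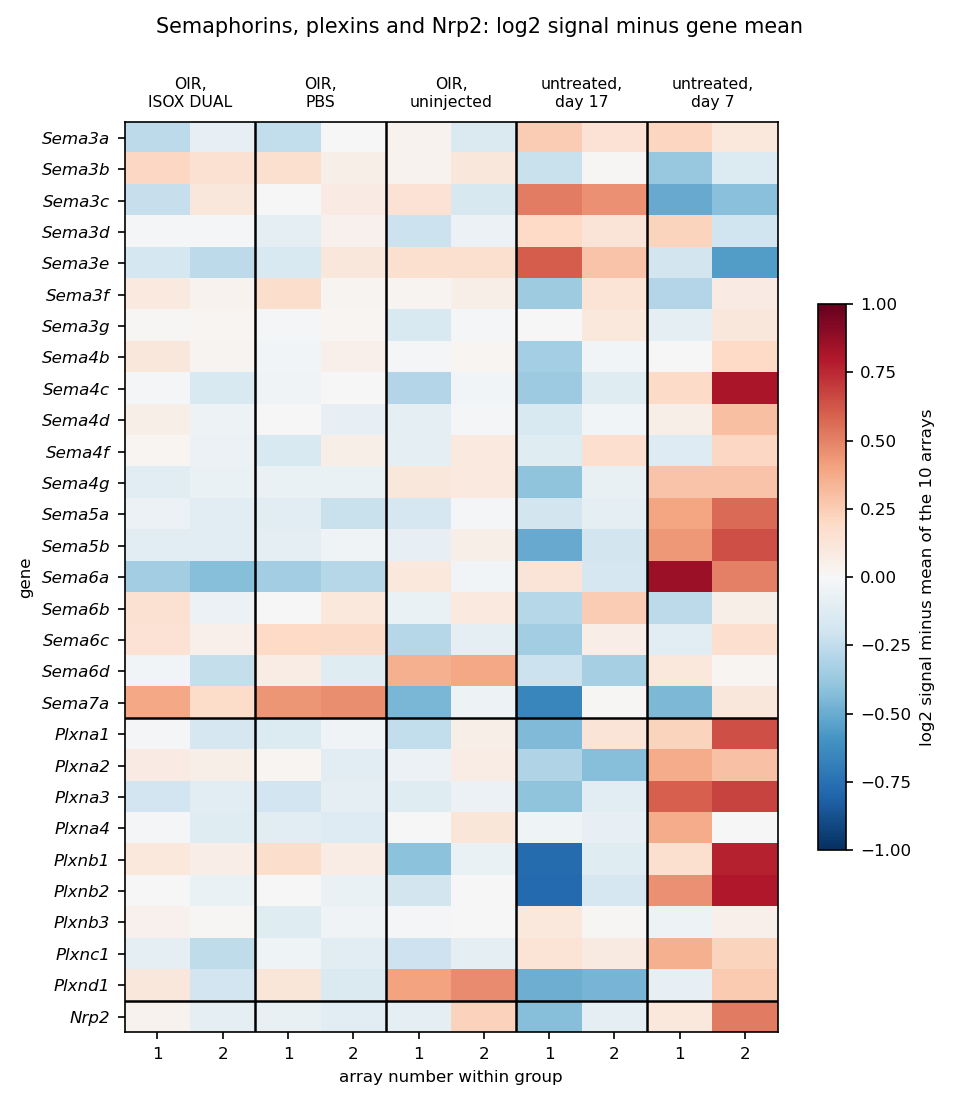
Log2 signal of the 29 genes (rows) on each of the 10 arrays (columns, 2 per group), as the difference from the gene's mean over the 10 arrays, from -1 (blue) to 1 (red). Most genes read highest at untreated day 7, Plxnd1 and Sema6d stand out in uninjected OIR retina, and the first untreated day 17 array is lower than the second for many genes.

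Over the 5 groups, the highest group mean lay at untreated day 7 for 16 of the 29 genes, against 31.5% of all genes tested. The lowest lay at untreated day 17 for 15 genes, against 20.2% of all genes. The arrays of that group differed, with a mean over the 29 genes of 7.03 on the first and 7.21 on the second. On the arrays of the OIR groups that mean ran from 7.16 to 7.27. Plxnd1 and Sema6d were the 2 genes whose highest mean was in uninjected OIR, where 10.3% of all genes had theirs. The gap between the highest and lowest group mean had a median of 0.57 log2 in the family, ranging from 0.08 for Sema4f to 1.10 for Plxnb2, and of 0.30 over all genes tested. These counts describe the arrays and carry no test.

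Uninjected OIR retina was compared first with untreated retina of the same day. The 2 genes that stood farthest apart were Plxnd1, the endothelial receptor of Sema3e, and Sema6d, a transmembrane semaphorin that binds Plxna1, and neither passed the threshold after adjustment. In limma's fit over all genes, 0 of 29 passed an adjusted p of 0.05 in either direction, against a background of 0.456% of genes called higher and 0.0387% called lower. At an unadjusted p under 0.05 there were 5 genes higher (3.41% of all genes) and 2 lower (2.69% of all genes). That count of 7 was 4 without the first untreated day 17 array, 4 without the second uninjected OIR array and 11 without the second untreated day 17 array. The difference was positive for 20 of 29 genes, against 40.0% of all genes, and its median was 0.07 log2, against -0.04 for all genes.

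Plxnd1 read 7.58 and 7.65 in uninjected OIR retina, against 6.70 and 6.71 in untreated day 17 retina. Its groups did not overlap, and each pair of arrays agreed closely. The difference was 0.91 ± 0.16 log2 (SE, n = 2 arrays each), a 1.88-fold higher mean in OIR with a 95% interval of 0.55 to 1.27 log2 and an adjusted p of 0.0702 in limma. Sema6d read 7.38 and 7.41 in uninjected OIR retina, against 6.81 and 6.69 in untreated day 17 retina. Here too both OIR arrays lay above both untreated ones. For neither gene was the share of all genes that separated this way counted. The difference was 0.64 ± 0.11 log2, 1.56-fold, with an interval of 0.39 to 0.90 and an adjusted p of 0.0743. Across the alternative settings the adjusted p of Plxnd1 ran from 0.0570 to 0.394 and that of Sema6d from 0.0452 to 0.532, so Sema6d passed under 1 setting only, the one with the array number as a block.

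Lists of cell markers were read in the same comparison. Of 6 tip cell genes, which mark the endothelial cells that lead a sprout, 3 rose in OIR: Apln, Angpt2 and Esm1. Their list averaged 7.23 and 7.19 log2 on the uninjected OIR arrays, against 5.91 and 5.94 on the untreated day 17 arrays. The 8 endothelial markers averaged 7.29 and 7.10 in OIR, against 6.92 and 6.76 in untreated retina, with 0 past the threshold in limma's fit (3 higher and 1 lower at an unadjusted p under 0.05) and 7 of 8 differences positive. For 5 pericyte markers the averages were 7.88 and 7.60 in OIR, against 7.09 and 7.01 in untreated retina, again with 0 past the threshold (3 higher at an unadjusted p under 0.05). Of 5 reactive glia genes, which injured or stressed retinal glia raise, 4 rose in OIR (Gfap, Serpina3n, A2m and Stat3), with a median difference over the 5 of 1.88 log2 and averages of 8.50 and 8.06 in OIR, against 6.44 and 6.48 in untreated retina. The 5 Mueller glia markers averaged 8.29 and 8.22 in OIR, against 8.44 and 8.78 in untreated retina, with 4 of 5 differences negative, a median of -0.44 log2 and 0 past the threshold in limma's fit (2 lower at an unadjusted p under 0.05). When only the arrays compared were fitted, 0 of all genes passed, so none of the tip cell and reactive glia calls was kept. The part of these cells in the values of Plxnd1 and Sema6d was not tested.

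The other 3 genes of the family lay higher in OIR at an unadjusted p under 0.05. Plxna2, a receptor of Sema6a in the inner retina, read 9.67 and 9.80 in uninjected OIR, against 9.43 and 9.30 in untreated day 17 retina (0.37 ± 0.10 log2, adjusted p = 0.322). Sema4g, a transmembrane semaphorin, read 7.93 and 7.91 in OIR, against 7.41 and 7.74 in untreated retina (0.34 ± 0.11, adjusted p = 0.577). Sema5b, a repellent cue of the inner retina, read 7.37 and 7.50 in OIR, against 6.94 and 7.26 in untreated retina (0.34 ± 0.13, adjusted p = 0.711). In each of these genes both OIR arrays lay above both untreated ones, and the share of all genes that did so was not counted.

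Of 7 class 3 semaphorins, 5 had a lower mean in OIR, without passing the adjusted threshold. Only Sema3c lay at an unadjusted p under 0.05. Sema3c read 5.87 and 5.57 in uninjected OIR retina, which is at background, against 6.24 and 6.18 in untreated day 17 retina. By that bound its mean was at least 1.21-fold lower in OIR, and the bound leaves out the spread between arrays. The fitted difference was -0.49 ± 0.14 log2 (interval -0.82 to -0.16, adjusted p = 0.415). Sema3e, the ligand of Plxnd1, read 7.16 and 7.15 in OIR, against 7.60 and 7.28 in untreated retina (-0.29 ± 0.16, interval -0.66 to 0.09, adjusted p = 0.995). Sema3a, the cue that repels vessels from ischaemic retina, read 6.24 and 6.06 in OIR, against 6.47 and 6.35 in untreated retina (-0.26 ± 0.12, interval -0.55 to 0.03, adjusted p = 0.911). The arrays of the 2 groups did not overlap for any of the 3 genes, but the share of all genes that separated this way was not counted. Sema3d read 4.84 and 5.00 in OIR, against 5.26 and 5.19 in untreated retina, below the background median on all of these arrays.

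Plxnc1, the plexin that binds Sema7a, read 6.81 and 6.93 in uninjected OIR, against 7.16 and 7.11 in untreated day 17 retina (-0.26 ± 0.10, adjusted p = 0.697). Among class 3 ligands, the differences of Sema3f and Sema3b were positive. Sema3f, a ligand of Nrp2, read 8.71 and 8.75 in OIR, against 8.33 and 8.82 in untreated retina, and the difference of 0.16 ± 0.18 log2 lay within the gap between the untreated arrays and was -0.09 without the first of them. Nrp2 read 7.06 and 7.39 in OIR, against 6.74 and 7.07 in untreated retina, with overlapping groups (0.32 ± 0.18, adjusted p = 0.985). The B-type receptor Plxnb2 read 7.96 and 8.15 in OIR, against 7.37 and 7.98 in untreated retina (0.38 ± 0.20, adjusted p = 0.967). Sema4d, the ligand of Plxnb1, read 7.24 and 7.32 in OIR, against 7.18 and 7.31 in untreated retina, and Sema3g, a class 3 ligand made by endothelial cells, 5.95 and 6.08 in OIR, against 6.09 and 6.20 in untreated retina. The genes not named here, with Sema3b, Sema3g and Sema4d, differed by -0.13 to 0.21 log2, each with an interval that includes 0.

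The same 29 genes were then read between ISOX DUAL and PBS, the comparison that holds the injection constant. No difference was detected. In limma's fit 0 of 29 genes passed the adjusted threshold, against a background of 0.00% higher and 0.00% lower, and 0 of 29 lay at an unadjusted p under 0.05, where 0.400% of all genes were higher and 0.619% lower. Differences ran from -0.20 log2 for Sema3e to 0.11 for Plxna2, with a median of -0.01 log2 against 0.01 for all genes. All adjusted p-values were 1.00.

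Plxnd1 read 7.29 and 6.99 with ISOX DUAL, against 7.30 and 7.03 with PBS, a difference of -0.03 log2 with a 95% interval of -0.39 to 0.33, and of 0.12 log2 without the second ISOX DUAL array. The arrays of these groups overlapped fully. Sema6d read 7.00 and 6.79 with ISOX DUAL, against 7.10 and 6.90 with PBS (-0.11, interval -0.37 to 0.15). Sema3e read 6.81 and 6.73 with ISOX DUAL, against 6.84 and 7.11 with PBS (-0.20, interval -0.57 to 0.18). Both ISOX DUAL arrays of Sema3e lay below both PBS arrays, the nearer of them by less than the gap between the PBS arrays. Plxna2 read 9.81 and 9.78 with ISOX DUAL, against 9.74 and 9.62 with PBS (0.11, interval -0.11 to 0.34). Plxnc1 read 6.92 and 6.77 with ISOX DUAL, against 6.98 and 6.91 with PBS (-0.10, interval -0.33 to 0.13). Sema5a read 7.85 and 7.81 with ISOX DUAL, against 7.79 and 7.69 with PBS (0.09, interval -0.15 to 0.32). Plxnb3 lay below background in both groups, at 5.66 and 5.63 with ISOX DUAL and 5.50 and 5.58 with PBS. These intervals leave room for differences up to the bounds given, and do not show that the groups were alike. The second ISOX DUAL array also carried lens transcripts: its 6 lens markers averaged 9.09 log2, against 5.94 to 6.82 on the other 9 arrays, and their part in the values of the family was not tested.

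Each injected group was also read against uninjected OIR. These comparisons share the uninjected arrays and are given side by side. In limma's fit 0 of 29 genes passed with ISOX DUAL (background 0.00% higher and 0.00430% lower) and 0 of 29 with PBS (0.00% in both directions). At an unadjusted p under 0.05 there were 4 genes with ISOX DUAL, 0 higher (1.59% of all genes) and 4 lower (2.70%), and 5 with PBS, 2 higher (1.75%) and 3 lower (2.53%). The 4 became 1 without the second ISOX DUAL array, and 2 when the first ISOX DUAL array or either uninjected OIR array was left out. The 5 became 0 without the second PBS array, 1 without the first uninjected OIR array, 2 without the first PBS array, and 3 without the second uninjected OIR array or either ISOX DUAL array.

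Plxnd1 differed from uninjected OIR by -0.48 ± 0.16 log2 with ISOX DUAL (adjusted p = 0.985) and by -0.45 ± 0.16 with PBS (adjusted p = 0.966). Sema6d differed by -0.50 ± 0.11 with ISOX DUAL (adjusted p = 0.520) and by -0.39 ± 0.11 with PBS (adjusted p = 0.835). For both genes all 4 injected arrays lay below both uninjected ones, with PBS as with ISOX DUAL. Sema6a, the transmembrane ligand of Plxna2 and Plxna4, read 8.43 and 8.35 with ISOX DUAL and 8.42 and 8.48 with PBS, against 8.87 and 8.74 in uninjected OIR. Its differences were -0.42 ± 0.15 with ISOX DUAL and -0.35 ± 0.15 with PBS (adjusted p = 0.991 and 0.966). Sema3e differed by -0.38 ± 0.16 with ISOX DUAL and -0.18 ± 0.16 with PBS (adjusted p = 0.991 and 0.966). The tip cell list averaged 6.18 and 6.15 with ISOX DUAL and 6.46 and 6.33 with PBS, against 7.23 and 7.19 in uninjected OIR, and its part in these values was not tested.

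Sema7a, Sema6c and Plxnb1 read higher on all 4 injected arrays than on both uninjected OIR arrays, as did 15.0% of all genes, and 6 of 29 genes read lower on all 4, as did 9.76% of all genes. Sema7a, the lipid-anchored semaphorin that signals through integrins and Plxnc1, read 8.65 and 8.45 with ISOX DUAL and 8.70 and 8.73 with PBS, against 7.81 and 8.21 in uninjected OIR. All 4 injected arrays were also above the untreated arrays of day 17 (7.61 and 8.28) and day 7 (7.81 and 8.38), which was not counted over all genes. The difference from uninjected OIR was 0.54 ± 0.26 log2 with ISOX DUAL (adjusted p = 0.991) and 0.71 ± 0.26 with PBS (adjusted p = 0.966), and between ISOX DUAL and PBS it was -0.17 with an interval of -0.77 to 0.44. Sema6c, a transmembrane semaphorin, read 7.01 and 6.91 with ISOX DUAL and 7.06 and 7.05 with PBS, against 6.58 and 6.76 in uninjected OIR (0.29 ± 0.16 with ISOX DUAL and 0.38 ± 0.16 with PBS). Its untreated day 17 arrays, at 6.51 and 6.93, spanned most of that range. Plxnb1, the receptor of Sema4d, read 8.41 and 8.37 with ISOX DUAL and 8.48 and 8.38 with PBS, against 7.90 and 8.24 in uninjected OIR (0.32 ± 0.25 with ISOX DUAL and 0.36 ± 0.25 with PBS, adjusted p = 0.991 and 0.966).

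**Figure D2:**
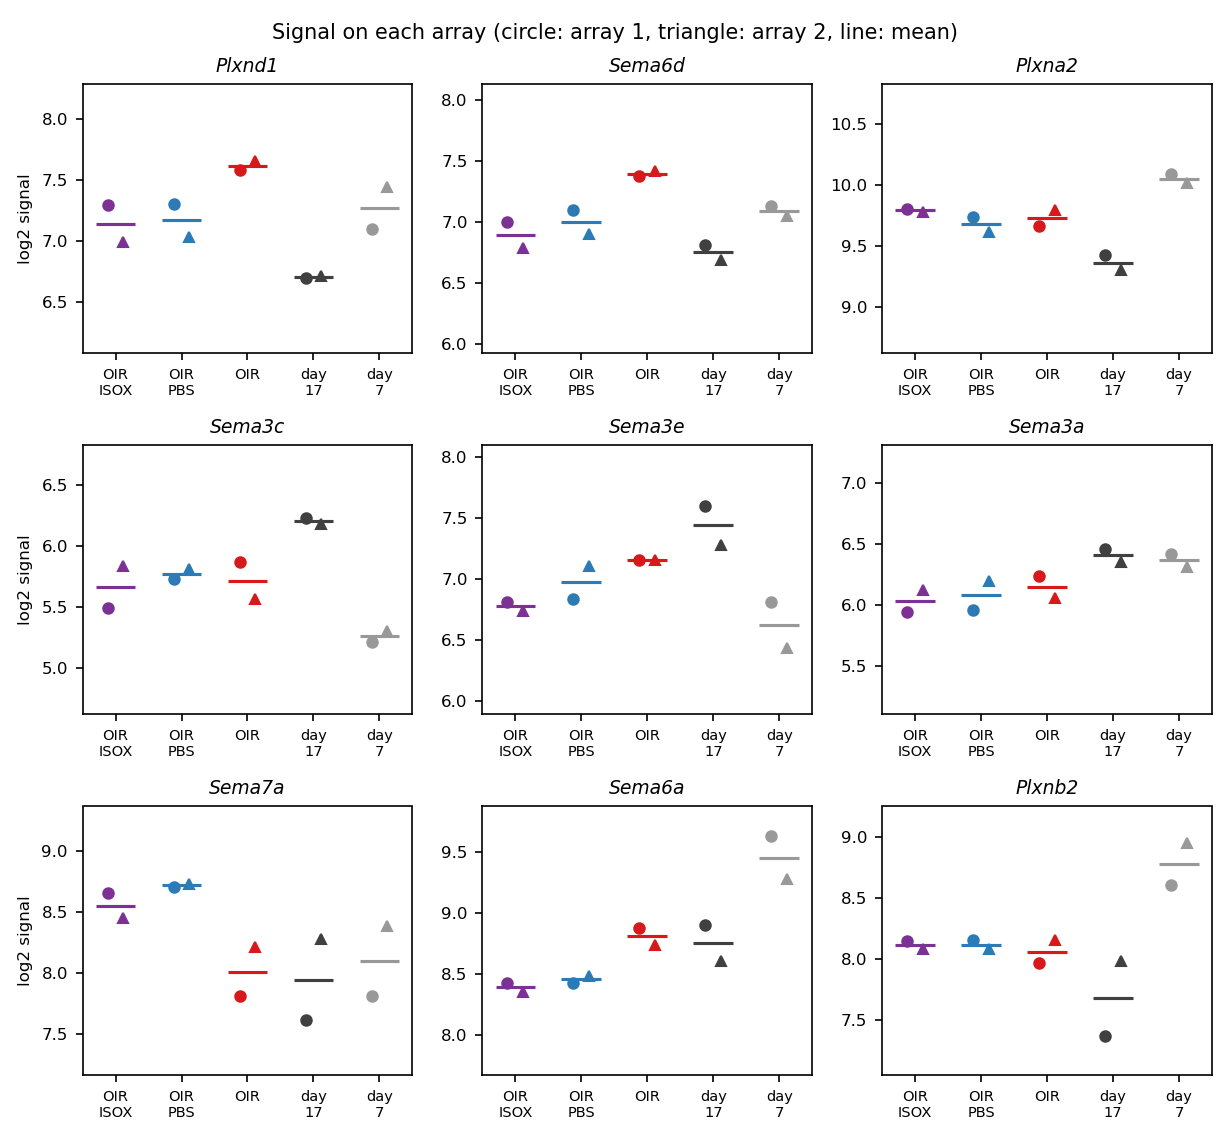
Log2 signal of 9 genes on each array, with ISOX DUAL OIR, PBS OIR, uninjected OIR, untreated day 17 and untreated day 7 from left to right (circle: first array, triangle: second array, line: group mean). All panels span the same log2 range; Plxnd1 and Sema6d read highest in uninjected OIR, and Sema7a reads higher on the 4 injected arrays than on the other 6.

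Against untreated day 17 retina, 0 of 29 genes passed in limma's fit with ISOX DUAL (background 0.00860% in each direction) and 0 of 29 with PBS (0.00% in each). With ISOX DUAL 3 genes were higher and 5 lower at an unadjusted p under 0.05 (3.96% and 4.50% of all genes). With PBS 3 were higher and 3 lower (4.43% and 4.71%). The count of 8 with ISOX DUAL became 15 without the second untreated day 17 array, 3 without the first, 3 when the first ISOX DUAL array was left out and 5 when the second was. The count of 6 with PBS became 14 without the second untreated day 17 array, 1 without the first, and 0 without the first PBS array.

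Of the 5 lower genes with ISOX DUAL, 3 were class 3 ligands, as were all 3 with PBS. Sema3e differed from untreated day 17 by -0.67 ± 0.16 log2 with ISOX DUAL (adjusted p = 0.302) and by -0.47 ± 0.16 with PBS (adjusted p = 0.541), and in both groups its arrays lay below the untreated ones. How many of all genes did so was not counted. Sema3c was at background with ISOX DUAL and with PBS (adjusted p = 0.342 and 0.541). Its mean was at least 1.12-fold lower in either group by the bound, which leaves out the spread between arrays. Sema3a read 5.95 and 6.13 with ISOX DUAL and 5.96 and 6.20 with PBS, against 6.47 and 6.35 in untreated day 17 retina, a difference of -0.37 ± 0.12 with ISOX DUAL and -0.33 ± 0.12 with PBS (adjusted p = 0.471 and 0.541). Sema6a differed by -0.37 ± 0.15 with ISOX DUAL and -0.30 ± 0.15 with PBS, and Plxnc1 by -0.29 ± 0.10 with ISOX DUAL and -0.19 ± 0.10 with PBS. Ganglion cell markers, of neurons that can make class 3 semaphorins, averaged 7.68 and 7.20 log2 over 6 genes with ISOX DUAL and 7.43 and 8.28 with PBS, against 8.80 and 8.68 in untreated day 17 retina. In limma's fit 0 of these markers passed with either injection, and at an unadjusted p under 0.05 6 were lower with ISOX DUAL and 2 with PBS. Their part in these values was not tested.

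On the higher side, Plxna2 differed from untreated day 17 by 0.43 ± 0.10 log2 with ISOX DUAL (adjusted p = 0.284) and by 0.32 ± 0.10 with PBS (adjusted p = 0.537). Plxnd1 differed by 0.44 ± 0.16 with ISOX DUAL and 0.46 ± 0.16 with PBS (adjusted p = 0.501 and 0.541). In both genes all injected arrays lay above both untreated ones, and the share of all genes that did so was not counted. Sema3b, another secreted ligand, read 6.82 and 6.77 with ISOX DUAL and 6.78 and 6.68 with PBS, against 6.39 and 6.63 in untreated day 17 retina (0.28 ± 0.12 with ISOX DUAL, adjusted p = 0.579). Sema7a differed by 0.60 ± 0.26 with ISOX DUAL and 0.77 ± 0.26 with PBS (adjusted p = 0.590 and 0.541). Plxnb1 also lay above its untreated day 17 arrays, which read 7.54 and 8.19 (0.53 ± 0.25 with ISOX DUAL and 0.57 ± 0.25 with PBS, adjusted p = 0.627 and 0.544). The untreated arrays of Plxnb1 were farther apart than either of its differences. Those of Sema7a differed so much that its difference with PBS was 0.44 log2 without the first untreated array and 1.10 without the second.

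**Figure D3:**
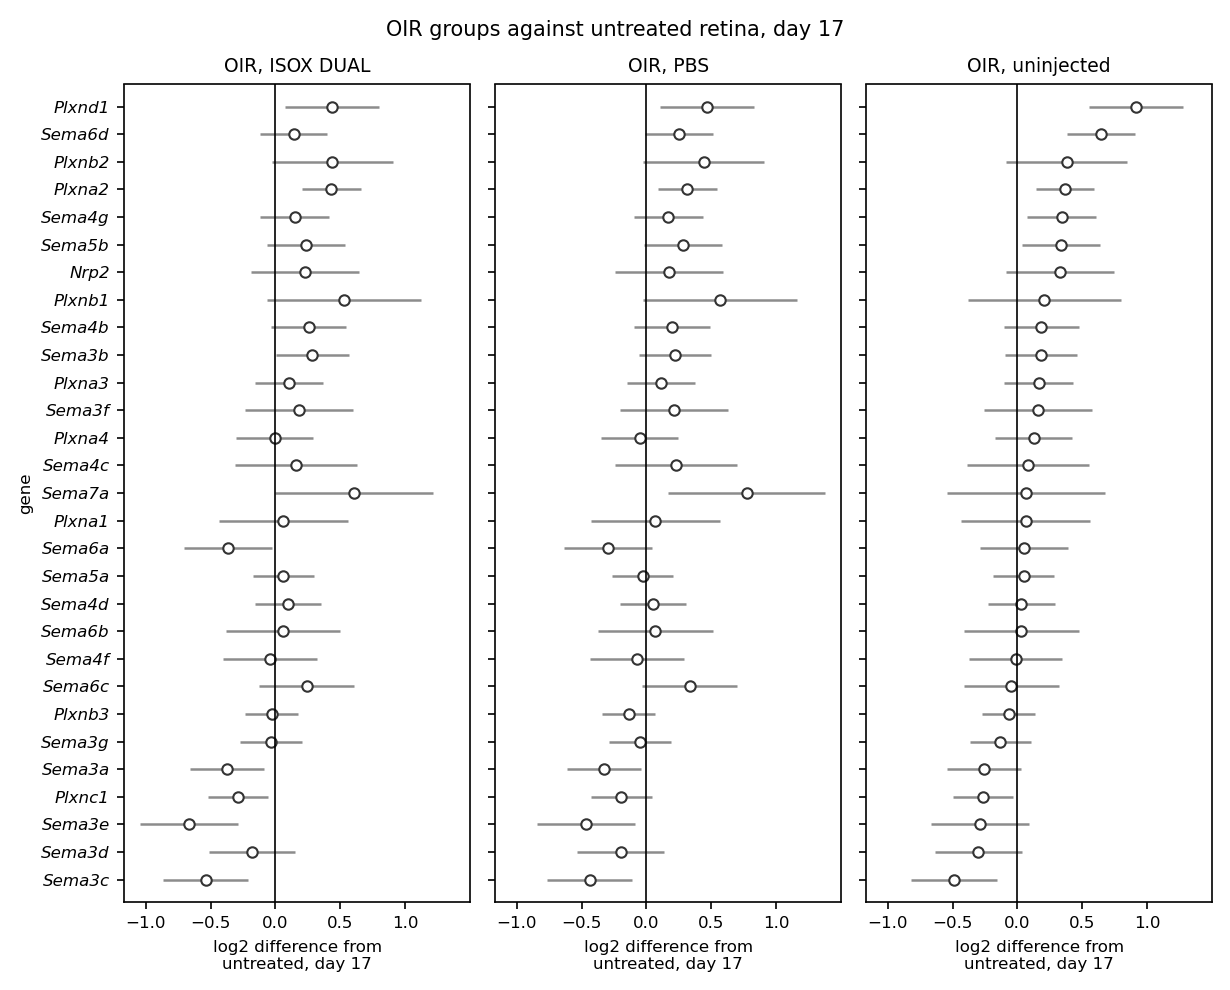
Log2 difference of the 29 genes from untreated day 17 retina (point) with its 95% interval (line), for ISOX DUAL OIR, PBS OIR and uninjected OIR from left to right. No gene passed the adjusted threshold; Plxnd1 and Sema6d lie farthest right in uninjected OIR, and Sema3c and Sema3e lie left of 0 in all 3 panels, which share the untreated arrays.

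Untreated retina of day 17 was last set against that of day 7, and 9 of the 29 genes passed the threshold. The receptors Plxna2, Plxna3 and Plxnb2 and the membrane-bound semaphorins Sema4g, Sema5a, Sema5b and Sema6a fell, and the secreted ligands Sema3c and Sema3e rose. In limma's fit 2 of 29 genes were called higher, against 5.26% of all genes, and 7 lower, against 5.29%. The 9 calls became 0 when only the 4 arrays compared were fitted, with fewer degrees of freedom, and 5 with array weights (Plxna2, Plxna3, Plxnb2, Sema5a and Sema5b). The difference was negative for 21 of 29 genes, with a median of -0.27 log2, against 0.01 for all genes, of which 52.0% were positive. At an unadjusted p under 0.05 there were 2 higher and 14 lower, against 11.1% and 11.7% of all genes.

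Among the plexins, 3 of 9 fell and 8 of 9 differences were negative, with a median of -0.59 log2. Plxna3, which with Plxna1 receives Sema5a and Sema5b in the inner retina, read 6.34 and 6.63 at day 17, against 7.34 and 7.42 at day 7 (-0.89 ± 0.11, adjusted p = 0.00299). Plxna2 read 9.43 and 9.30 at day 17, against 10.09 and 10.01 at day 7 (-0.69 ± 0.10, adjusted p = 0.00437). In both genes the days did not overlap, and the arrays of a day lay closer to each other than to the other day. How many of all genes separated this way was not counted. Plxnb2, a receptor of Sema4c with roles in migrating neural precursors, read 7.37 and 7.98 at day 17, against 8.60 and 8.94 at day 7 (-1.10 ± 0.20, adjusted p = 0.0129), a call lost without the second day 7 array (adjusted p = 0.0729). Plxnb1 read 7.54 and 8.19 at day 17, against 8.47 and 9.08 at day 7, which did not pass (-0.91 ± 0.25, adjusted p = 0.0634).

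Plxnd1 read 6.70 and 6.71 at day 17, against 7.10 and 7.44 at day 7 (-0.57 ± 0.16, adjusted p = 0.0602). Its order of group means was thus highest in uninjected OIR (7.62), then untreated day 7 (7.27), PBS (7.17), ISOX DUAL (7.14) and untreated day 17 (6.70), and the 3 middle groups overlapped in their arrays. Plxna1 read 7.59 and 8.15 at day 17, against 8.25 and 8.67 at day 7 (-0.59 ± 0.21, adjusted p = 0.144). Differences of Plxna4 and Plxnc1 were -0.25 and -0.18 (adjusted p = 0.309 and 0.366). Plxnb3 was below the background median on every array. Nrp2, co-receptor of Sema3f and of VEGF family ligands, read 6.74 and 7.07 at day 17, against 7.27 and 7.68 at day 7 (-0.57 ± 0.18, adjusted p = 0.0916).

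Both class 5 semaphorins, transmembrane cues that keep neurites out of the outer retina, fell. Sema5b read 6.94 and 7.26 at day 17, against 7.88 and 8.09 at day 7 (-0.88 ± 0.13, adjusted p = 0.00512). Sema5a read 7.73 and 7.81 at day 17, against 8.31 and 8.48 at day 7 (-0.62 ± 0.10, adjusted p = 0.00804). For each the highest day 17 array was below the lowest day 7 array by more than either group's own gap. Such a separation was not counted over all genes. In class 6, Sema6a read 8.90 and 8.60 at day 17, against 9.63 and 9.27 at day 7 (-0.70 ± 0.15, adjusted p = 0.0221). Its call was lost without the second day 17 array (adjusted p = 0.0828), without the first day 7 array (0.0791) with array weights (0.0632) and on leaving out either ISOX DUAL array (0.0502), which lowers the degrees of freedom and leaves the difference at -0.70. Sema6d read 6.81 and 6.69 at day 17, against 7.13 and 7.05 at day 7 (-0.34 ± 0.11, adjusted p = 0.111).

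In class 4, 5 of 5 differences were negative and 1 gene was called. Sema4g read 7.41 and 7.74 at day 17, against 8.10 and 8.10 at day 7 (-0.52 ± 0.11, adjusted p = 0.0261). That call was lost in 7 of 10 fits that left out 1 array, those without the first day 17 array (adjusted p = 0.0775), either day 7 array (0.0758 and 0.0897), either ISOX DUAL array (0.0614) or either PBS array (0.0547), and with array weights (0.0843). Sema4c, a ligand of Plxnb2, read 6.38 and 6.62 at day 17, against 6.93 and 7.55 at day 7 (-0.74 ± 0.20, adjusted p = 0.0569). Sema4d read 7.18 and 7.31 at day 17, against 7.40 and 7.63 at day 7 (-0.27 ± 0.11, adjusted p = 0.194). The days did not overlap in any of these 3 genes, but the share of all genes with such a separation was not counted.

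Among class 3 ligands 6 of 7 differences were positive, and 2 genes rose. Sema3e read 7.60 and 7.28 at day 17, against 6.81 and 6.44 at day 7, 1.76-fold higher (0.82 ± 0.16, adjusted p = 0.0177). Its call was lost without the first day 17 array (adjusted p = 0.0904) or the second day 7 array (0.0830), and with array weights (0.0697). Sema3c, a ligand of Plxnd1 and neuropilins with roles in cardiovascular development, read 6.24 and 6.18 at day 17, against 5.22 and 5.31 at day 7. Day 7 was below background, so the mean was at least 1.14-fold higher at day 17 (fitted difference 0.95 ± 0.14, adjusted p = 0.00576). That call was lost with array weights (adjusted p = 0.0991) and when only the arrays compared were fitted (0.0537). Sema3a read 6.47 and 6.35 at day 17, against 6.42 and 6.31 at day 7, and Sema3g read 6.09 and 6.20 at day 17, against 6.01 and 6.21 at day 7. Both differences were 0.04 log2 and changed sign when single arrays were left out, with intervals of -0.25 to 0.33 for Sema3a and -0.20 to 0.28 for Sema3g. Sema3f read 8.33 and 8.82 at day 17, against 8.40 and 8.77 at day 7, a difference of -0.01 within the gap between arrays. Sema7a differed by -0.15 (adjusted p = 0.820), and by 0.18 without the first day 17 array.

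**Figure D4:**
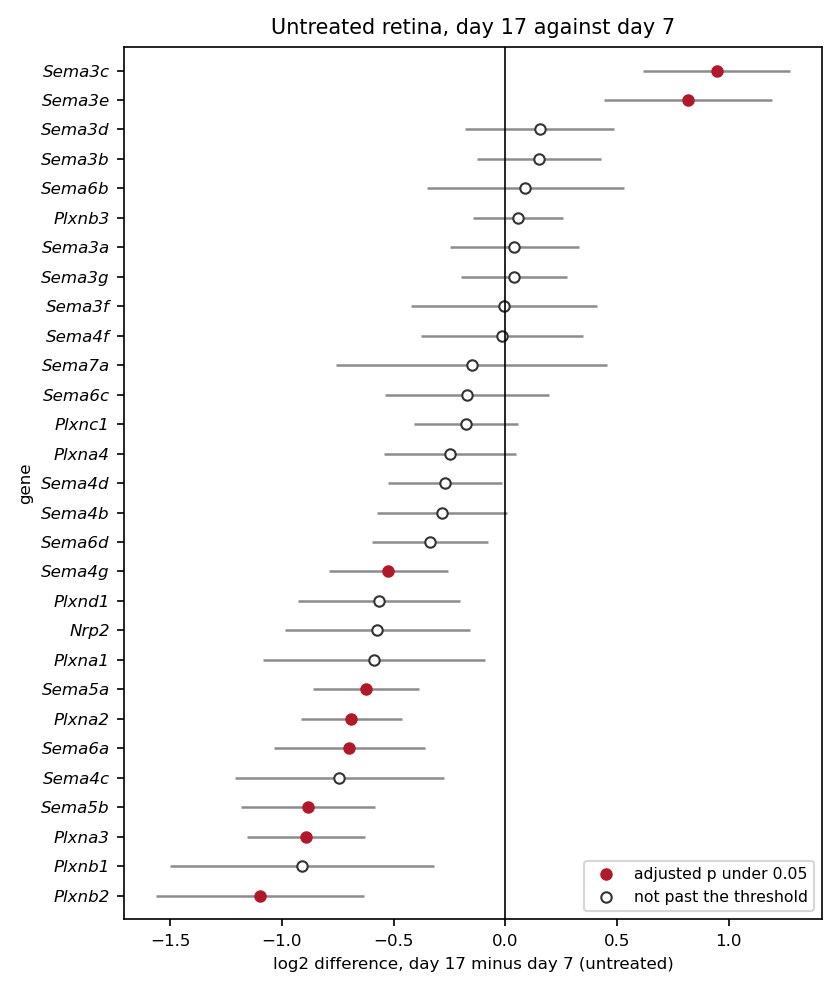
Log2 difference of the 29 genes between untreated retina at day 17 and at day 7 (point; positive is higher at day 17) with its 95% interval (line), filled where the adjusted p is under 0.05. Sema3c and Sema3e lie at the right, 7 filled points lie left of 0, and 21 of 29 differences are negative.

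Many cell markers moved strongly between the same days. Over 4 rod markers the average was 11.31 and 11.50 log2 at day 17, against 10.10 and 9.45 at day 7, with 3 of 4 called higher. Over 4 bipolar cell markers it was 9.56 and 9.78 at day 17, against 7.94 and 6.80 at day 7, also with 3 of 4 called higher. The 8 endothelial markers averaged 6.92 and 6.76 at day 17, against 6.59 and 6.48 at day 7, with 3 called higher and 1 lower. The 6 tip cell genes averaged 5.91 and 5.94 at day 17, against 6.33 and 6.50 at day 7, with 3 of 6 called lower. The 6 ganglion cell markers averaged 8.80 and 8.68 at day 17, against 8.49 and 7.86 at day 7. Of these, 0 passed the threshold, and 4 of 6 differences were positive. The part of these cells in the changes of semaphorins and plexins was not tested.

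The partners of the family were read from a list of 55 tested genes: co-receptors, ligands that share the neuropilins, cytoplasmic effectors of plexins and proteases that process ligands. That list was chosen with earlier results of these data known. Its counts beside the shares of all genes are therefore description only and carry no test. In uninjected OIR against untreated day 17 retina, 4 of 55 rose (0.456% of all genes) and 0 fell (0.0387%). All 4 calls were lost with array weights, when only the arrays compared were fitted, and without any 1 of the uninjected OIR, untreated day 17 or ISOX DUAL arrays, where the adjusted p ran from 0.0529 to 0.288. Vegfa, a hypoxia-driven vessel growth factor that binds neuropilins, read 9.94 and 9.91 in OIR, against 8.81 and 8.88 in untreated retina (1.08 ± 0.12, adjusted p = 0.0176). Pgf, placental growth factor, read 6.23 and 6.12 in OIR, against 5.09 and 5.27 in untreated retina, which is below background. Its mean was at least 1.26-fold higher in OIR (adjusted p = 0.0176). Itgb1, the integrin chain through which Sema7a signals, read 9.18 and 8.99 in OIR, against 8.30 and 8.31 in untreated retina, 1.72-fold higher (0.78 ± 0.10, adjusted p = 0.0241). Chl1, an adhesion molecule that pairs with neuropilins, read 7.39 and 7.24 in OIR, against 6.57 and 6.35 in untreated retina, 1.81-fold higher (0.86 ± 0.13, adjusted p = 0.0420). The median over the 55 genes was 0.05 log2, and 0 of 33 plexin effectors passed in limma's fit (2 higher at an unadjusted p under 0.05).

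Between ISOX DUAL and PBS 0 of the 55 partners passed in limma's fit and 0 lay at an unadjusted p under 0.05. Against uninjected OIR, 0 passed with either injection, and 7 were lower at an unadjusted p under 0.05 with each (2.70% of all genes with ISOX DUAL and 2.53% with PBS). Against untreated day 17 retina 0 passed as well, and at an unadjusted p under 0.05 there were 7 higher and 5 lower with ISOX DUAL (3.96% and 4.50% of all genes) and 5 higher and 4 lower with PBS (4.43% and 4.71%). L1cam, an adhesion molecule that joins Nrp1 in the Sema3a receptor, read 7.68 and 7.51 with ISOX DUAL and 7.61 and 7.86 with PBS, against 8.17 and 8.12 in uninjected OIR and 8.30 and 8.23 in untreated day 17 retina. Its difference from untreated retina was -0.66 ± 0.12 log2 with ISOX DUAL (adjusted p = 0.195) and -0.53 ± 0.12 with PBS (adjusted p = 0.509). Vegfa read 9.77 and 9.60 with ISOX DUAL and 9.84 and 9.64 with PBS, above the untreated arrays in both groups (0.84 ± 0.12 and 0.89 ± 0.12, adjusted p = 0.144 and 0.270). That separation was not counted over all genes.

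Between untreated day 17 and day 7, 4 of 55 partners rose (5.26% of all genes) and 7 fell (5.29%). With array weights, or when only the arrays compared were fitted, 1 of these 11 calls was kept, that of Flt1. Flt1, a VEGF receptor, read 7.88 and 7.87 at day 17, against 6.60 and 6.11 at day 7, 2.88-fold higher (adjusted p = 0.00140). Kdr, the VEGF receptor that forms complexes with neuropilins, read 9.73 and 9.86 at day 17, against 10.35 and 10.66 at day 7 (-0.71 ± 0.13, adjusted p = 0.0139). Among cytoplasmic partners, Dpysl5 and Crmp1, of the collapsin response mediator family that carries Sema3a signals to the cytoskeleton, fell by 1.06 and 0.86 log2 (adjusted p = 0.00550 and 0.0182). Of the Rnd GTPases, which bind the cytoplasmic domain of plexins, Rnd3 fell by 1.27 log2 (adjusted p = 0.0106) and Rnd1 rose by 0.51 (adjusted p = 0.0137). Mical2, a cytoskeletal oxidase, rose by 0.51 (adjusted p = 0.0127). Met, the receptor kinase that pairs with B-type plexins, had a mean at least 1.05-fold higher at day 17 (adjusted p = 0.0174). Itgb1 fell by 0.51 and Farp1, an exchange factor that binds Plxna4, by 0.50 (adjusted p = 0.0147 and 0.0283). Pgf also passed, with both days below background, so no fold is given. The call of Farp1 was also lost with quantile normalization (adjusted p = 0.0612), and that of Pgf with no filter on dim genes (adjusted p = 0.0564).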

How the data were processed

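The authors deposited log2 values, 1 for each transcript cluster on each array, and the log scale was read from their range of 0.782 to 13.7. RNA was extracted with Trizol and labelled with the Affymetrix WT kit, per the labels' protocols. Their software, normalization and build were not given in any source used here. No further normalization was applied. Among clusters with a single symbol, the one of highest mean stood for the gene. Symbols were updated through Entrez identifiers. Testing required signal over the 30th percentile of an array on 2 or more arrays. The model was a limma 3.58.1 fit (R 4.3.3, lmFit, then eBayes with no trend) of 5 group means to all 10 arrays, with 5 residual degrees of freedom and 2.76 from the prior. Benjamini-Hochberg adjustment ran over 23255 genes with a threshold of 0.05, and every adjusted p in the text is from limma. A fold is given as a bound where a group's arrays were both under the median negative control probe. The bound sets the mean of the other group against that median and leaves out the spread between arrays. The family, partner and marker lists, and the genes named, were chosen with earlier results of these data known. Named are genes past the threshold, those of smallest p per comparison, and genes with known roles in retina. The steps were tested on simulated data. Promoter windows are from RefSeq (GRCm38.p6) and no coordinates come from the arrays. Alternatives were the variance trend, quantile normalization, centring, the filter, the choice of cluster, the arrays fitted, array weights, the array number as a block, and each array left out.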

Additional observations from a re-analysis of the deposited data

How the results depend on the processing

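Of 203 differences (29 genes in 7 comparisons), 77 changed sign under 1 or more of 19 alternatives. All 77 were at most 0.21 log2 in size, and none was a called one. Of the differences given in the text, 6 changed sign when 1 array was left out: Plxnd1 between ISOX DUAL and PBS (-0.18 to 0.12 log2), Sema3f between OIR and untreated day 17 (-0.092 to 0.40), and between day 17 and day 7 Sema3a (-0.015 to 0.097), Sema3f (-0.25 to 0.24), Sema3g (-0.062 to 0.14) and Sema7a (-0.48 to 0.18). With quantile normalization Sema3g became -0.012 and Sema3f 0.018. Of counts of called genes, 130 stayed within 1.5 times the main count and 3 did not. Outside untreated day 17 against day 7 the main count was 0, so most of the 130 set 0 against 0. For untreated day 17 against day 7 the 9 called genes became 0 when only the 4 arrays compared were fitted, which leaves fewer degrees of freedom, and 5 with array weights. Leaving out each array in turn gave 6 to 10. Plxna2, Plxna3, Sema5a, Sema5b and Sema3c were called in 10 of these 10 fits, Plxnb2 in 9, Sema3e in 8, Sema6a in 6 and Sema4g in 3. With the array number as a replicate block, uninjected OIR against untreated day 17 retina gave 1 called gene (Sema6d, adjusted p = 0.0452) and day 17 against day 7 gave 11. Same-numbered arrays deviated together from their group means among the 3 groups without injection (r = 0.587, 0.809 and 0.583) and between both injected groups (0.399). Between injected and uninjected groups r lay between -0.406 and -0.0567, so the numbers were not taken to pair the arrays across all groups. The main fit therefore leaves out the deviations that the 3 groups without injection shared. In the comparisons among the day 17 groups, leaving out any 1 array called 0 genes. Having 2 arrays a group limits precision, with a standard error of 0.134 log2 and a 95% half-width of 0.311 log2 for the median gene.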
